A study of Mus musculus with 18 samples.

Results

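The middle of the control mouse cochlea was compared with its base. The comparison used 6 of the 18 libraries of the series, 3 of control middle and 3 of control base, and 17901 of the 46583 genes in the table, those that passed a filter on low counts. The mice were 4 weeks old, were labelled wild type and untreated, and are called controls throughout. The rest of the series holds control apex and the base, middle and apex of conditional Fst knock-out mice (Fst cKO), also 4 weeks old and untreated. Fst encodes follistatin, a secreted protein that binds activins. Which Cre line deleted Fst is not given in the sources used here.

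The labels describe 1 RNA pool for each region of each genotype, divided into 3 technical libraries. The p-values below therefore carry the spread between libraries of 1 pool and not the spread between animals. In a piece of whole cochlea, fewer cells of a type and less RNA per cell cannot be told apart.

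The cochlea is ordered by sound frequency. Its base responds to high frequencies, its apex to low frequencies, and the middle lies between them. Hair cells turn vibration into electrical signals, and spiral ganglion neurons carry these to the brainstem. Supporting cells hold the hair cells in place, and the tectorial membrane, a gel, lies over the hair cells. The stria vascularis supplies the potassium-rich fluid above the hair cells. Schwann cells wrap the peripheral part of the auditory nerve, and oligodendrocytes and astrocytes are the glia of its central part. The organ is enclosed in bone, which contains marrow spaces, and borders on the middle ear mucosa.

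Library totals ran from 28895357 to 29030145 counts in the middle and from 24446760 to 31117987 in the base, where replicate 3 had the lowest total. Libraries of a pool differed by little more than counting error, with a chi-square of 1.21 to 1.26 per degree of freedom in the middle and 1.21 to 1.59 in the base. The 2 largest base values both involved replicate 3. Markers of the tissue were present on both sides. The 28 hair cell genes summed to between 2356 and 2372 CPM (read counts scaled to a common library total, with TMM factors) in the middle libraries, against 1940 to 1952 CPM in the base libraries. Most of that gap lay in Calb2, also on the list of spiral ganglion neurons, which averaged 1376 CPM in the middle and 969 CPM in the base. Atoh1, a factor of hair cell development, was the member at 0 counts in both regions.

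At an adjusted p under 0.05 and a log2 change of at least 1, 488 genes were called, which is 2.73% of the genes tested (edgeR quasi-likelihood test, two-sided, Benjamini-Hochberg adjustment). Of these, 273 were higher in the middle, 1.53% of the genes tested, and 215 were lower, 1.2%. The median log2 change over all tested genes was 0.0032. Most calls concerned low transcripts, since 187 of the called genes averaged under 1 CPM in both regions and 118 reached a mean of 5 CPM in the higher region, 57 of them higher in the middle and 61 lower. A log2 change of at least 2 in size was seen for 72 called genes, 32 higher and 40 lower. The libraries of the regions did not overlap for 464 of the 488 called genes, against 41.1% of all tested genes. Changes below are log2 middle over base with the standard error (SE) of the fit.

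**Figure D1:**
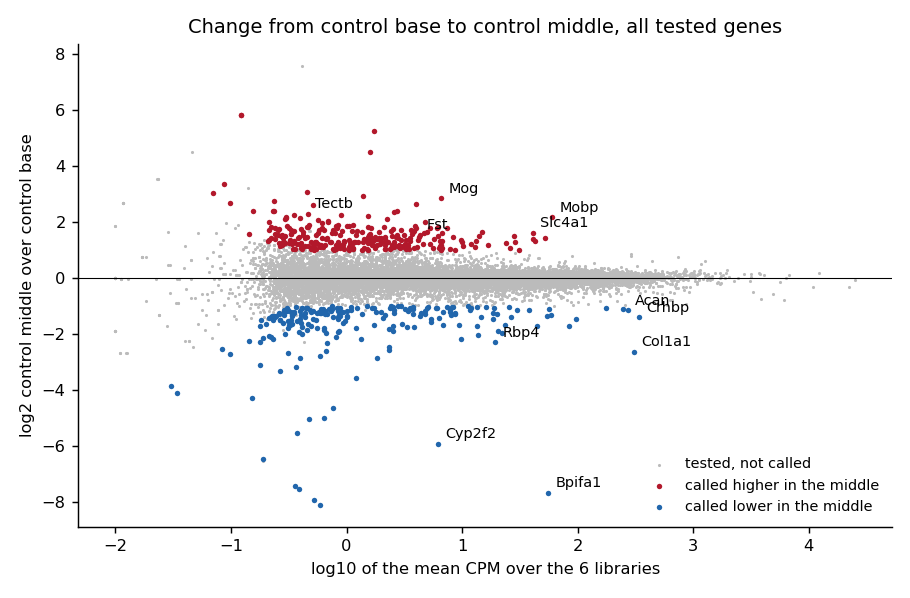
Each point is 1 of 17901 tested genes, with the log10 of its mean CPM over the 6 control libraries on the horizontal axis and the log2 change, control middle over control base, on the vertical axis. Red points mark the 273 genes called higher in the middle and blue points the 215 called lower. Bpifa1 and Cyp2f2 lie far below the other genes of their level, and Col1a1, at the right, stands at -2.63.

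Of the 488 called genes, 112 stood on a list of marker or pathway genes. The called members of the lists for neutrophils, red blood cells, platelets, cell division and central glia were higher in the middle. Those of the lists for bone, cartilage, muscle and the transporters of meninges and choroid plexus were lower there, and the airway list had calls in both directions. How much bone, marrow, nerve and mucosa was dissected with each region is not given in the sources used here, and its part in the step was not tested. No hair cell, Schwann cell, macrophage or endothelial list had a called member, beside 2.73% of all tested genes. At that share a list of this size can hold no called member, so the absence is not a result about these cells. The same holds for the other lists without a call described below. At that share such a list can also hold 1 called member. A lone call below therefore describes the gene and not its list.

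**Figure D2:**
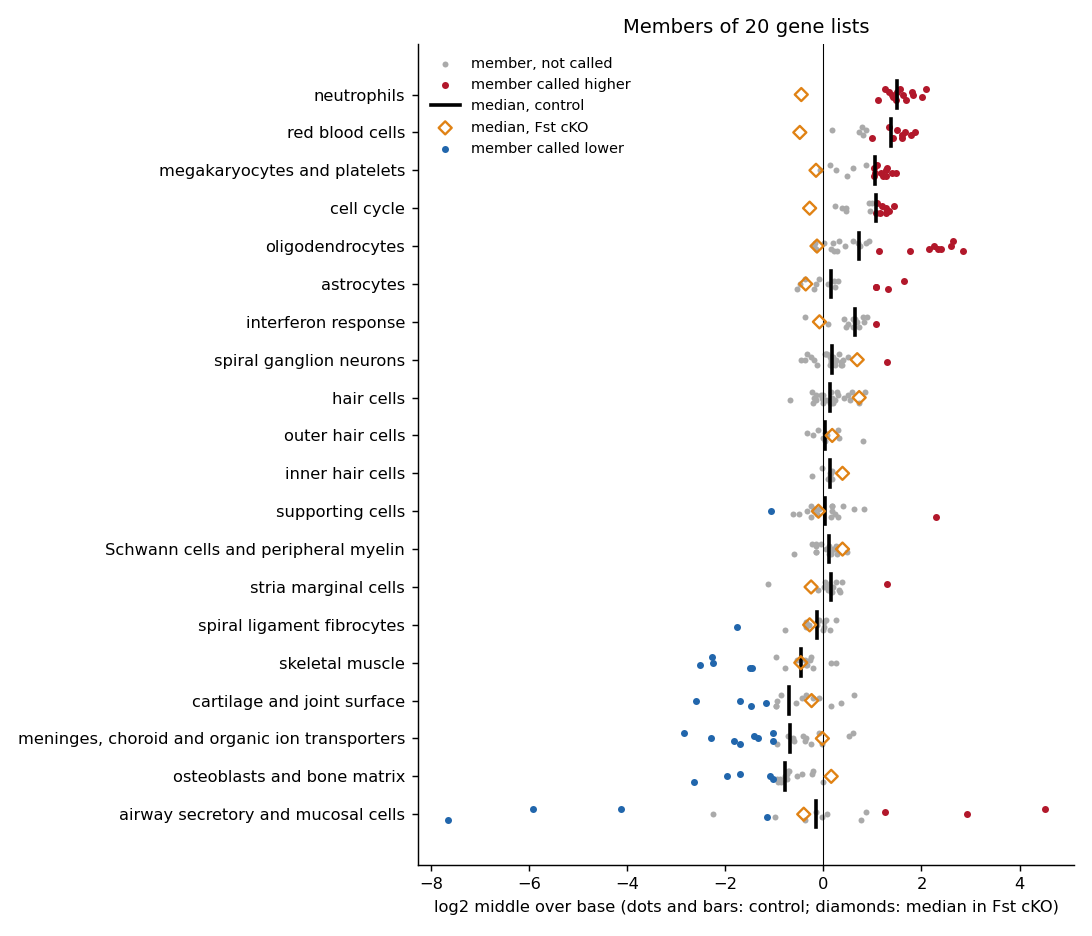
Rows are 20 gene lists, and the horizontal axis is the log2 change, middle over base. Dots are tested members in the control, red where called higher, blue where called lower and grey where not called. The black bar is the list's median in the control and the open diamond its median in Fst cKO. The median of the neutrophil list is -0.45 in Fst cKO and 1.5 in the control, where all its members lie right of 0.

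All 15 tested neutrophil genes were called higher in the middle, with changes of 1.12 to 2.09 and a median of 1.5, beside a median of 0.0032 over all genes. S100a9, a subunit of the calcium-binding protein calprotectin, had 75.4, 75.1 and 75 CPM in the 3 middle libraries, against 26.9, 28.3 and 30 CPM in the 3 base libraries (1.41, SE 0.033, adjusted p 5.16e-28 by edgeR). Each middle library lay far above each base library. S100a8, the other subunit, averaged 41.5 ± 0.382 CPM in the middle and 14.8 ± 0.346 CPM in the base (SD, n = 3 libraries each), a change of 1.49. Mpo, myeloperoxidase of the primary granules, had 21.7, 22.6 and 23.1 CPM in the middle, against 7.27, 7.91 and 6.39 CPM in the base (1.63, SE 0.064). Elane, neutrophil elastase of the same granules, averaged 7.66 ± 0.556 CPM in the middle and 1.91 ± 0.0613 CPM in the base (2.01). Ngp, a granule protein made by maturing neutrophils, stood at 59.3 ± 0.948 CPM in the middle and 22.6 ± 0.349 CPM in the base, and Ltf, lactoferrin of the secondary granules, at 33.5 ± 0.881 and 14 ± 0.653 CPM in the same order. Genes of early granules and of mature cells were thus called alike.

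Of 14 tested red blood cell genes, 9 were called higher, none was called lower, and the median change was 1.37. Slc4a1, the anion exchanger band 3 of the red cell membrane, had 62.3, 60.6 and 62.5 CPM in the middle libraries, against 20.3, 20 and 20.5 CPM in the base libraries (1.61, SE 0.035, adjusted p 5.58e-29 by edgeR). Epb4.2, protein 4.2, which binds band 3 at the membrane, averaged 6.1 ± 0.859 CPM in the middle and 1.67 ± 0.11 CPM in the base (1.87). Hemgn, a nuclear protein of red cell precursors, averaged 9.37 ± 0.19 CPM in the middle and 2.72 ± 0.176 CPM in the base (1.79). The globins missed the fold threshold. Hba-a1, an alpha globin with a near-identical copy in the genome, averaged 373 ± 2.88 CPM in the middle and 205 ± 2.23 CPM in the base (0.86), and Hbb-bs, a beta globin, averaged 367 ± 2.02 and 210 ± 5.83 CPM (0.8).

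Among 17 megakaryocyte and platelet genes, 11 were called higher and none lower, with a median of 1.06. Ppbp, a platelet chemokine, had 17.2, 17.2 and 15.6 CPM in the middle, against 7.24, 7.71 and 6.39 CPM in the base (1.22, SE 0.073). Vwf and Thbs1, platelet proteins that endothelium or other cells also make, were not called, with changes of 0.14 and -0.072. Of 15 cell cycle genes, 8 were called higher and the median was 1.08. Mki67, a nuclear protein of dividing cells, had 39.5, 39.3 and 42.6 CPM in the middle, against 17, 16.5 and 16.9 CPM in the base (1.27, SE 0.042). Top2a, which untangles replicated DNA, averaged 14 ± 0.298 CPM in the middle and 5.54 ± 0.144 CPM in the base (1.34), and Rrm2, a ribonucleotide reductase subunit, 8.59 ± 0.456 and 4.08 ± 0.392 CPM (1.08). Mcm2, of the replicative helicase, changed by 0.47 and was not called.

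None of 13 macrophage genes was called: Csf1r, the receptor for macrophage growth factor, averaged 53.2 ± 0.829 CPM in the middle and 51.2 ± 2.12 CPM in the base, and Lyz2, a lysozyme of macrophages and neutrophils, changed by 0.42. Of 13 B cell lineage genes, 11 changes were positive with a median of 0.45, and 2 were called higher, both low. Rag2, which cuts antigen receptor genes, averaged 1.57 ± 0.285 CPM in the middle and 0.665 ± 0.106 CPM in the base (1.22), and Vpreb1, of the pre-B cell receptor, changed by 1.03, a call lost without control middle replicate 2 (0.78). Rag1 and Ebf1, an early B cell factor also found elsewhere, changed by 0.11 and -0.033. Of 15 interferon response genes, Ifi44 alone was called, at 9.16 ± 0.374 CPM in the middle and 4.33 ± 0.219 CPM in the base (1.08), and Ifit3 changed by 0.83. The list's median was 0.64, with 14 of 15 members positive.

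The oligodendrocyte list had 9 of 24 tested members called higher and none lower, with changes of 1.14 to 2.84 among those called. Mog, a glycoprotein on the outer face of central myelin, had 11.9, 12.4 and 10.6 CPM in the middle libraries, against 1.84, 1.32 and 1.71 CPM in the base libraries. That is a change of 2.84 (SE 0.12, adjusted p 6.46e-20 by edgeR), or 7.16-fold. Mobp, a basic protein of central myelin, had 95.8, 96.4 and 101 CPM in the middle, against 21.9, 22.2 and 21.6 CPM in the base (2.16, SE 0.034). Ermn, a cytoskeletal protein of mature oligodendrocytes, averaged 6.91 ± 1.01 CPM in the middle and 1.09 ± 0.188 CPM in the base (2.65), and Hapln2, a link protein at central nodes of Ranvier, 6.14 ± 0.592 and 1.79 ± 0.146 CPM (1.77).

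The upstream sequences of these 4 genes, which moved together, are given here 5′ to 3′ as the 250 bases before the RefSeq gene start on GRCm38.p6. SOX10, a transcription factor of myelinating glia, binds motifs with a SOX core, and capitals mark each ACAAAG or ACAATG on either strand.
Mog (chr17:37023399-37023648, minus strand): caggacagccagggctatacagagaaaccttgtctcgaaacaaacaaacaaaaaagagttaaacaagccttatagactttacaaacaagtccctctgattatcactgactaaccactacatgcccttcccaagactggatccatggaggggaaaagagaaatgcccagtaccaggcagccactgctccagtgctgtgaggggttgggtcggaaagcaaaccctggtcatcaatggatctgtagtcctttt
Mobp (chr9:120149492-120149741, plus strand): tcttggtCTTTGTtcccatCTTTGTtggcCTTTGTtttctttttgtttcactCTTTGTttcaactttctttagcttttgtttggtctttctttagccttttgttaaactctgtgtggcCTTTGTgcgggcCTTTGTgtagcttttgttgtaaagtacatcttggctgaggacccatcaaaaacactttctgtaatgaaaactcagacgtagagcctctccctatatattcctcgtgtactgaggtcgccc
Ermn (chr2:58052865-58053114, minus strand): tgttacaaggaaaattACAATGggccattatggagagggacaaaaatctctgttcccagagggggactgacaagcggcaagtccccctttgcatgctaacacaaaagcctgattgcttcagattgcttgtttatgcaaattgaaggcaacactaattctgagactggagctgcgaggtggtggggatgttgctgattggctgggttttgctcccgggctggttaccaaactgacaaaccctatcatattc
Hapln2 (chr3:88027512-88027761, minus strand): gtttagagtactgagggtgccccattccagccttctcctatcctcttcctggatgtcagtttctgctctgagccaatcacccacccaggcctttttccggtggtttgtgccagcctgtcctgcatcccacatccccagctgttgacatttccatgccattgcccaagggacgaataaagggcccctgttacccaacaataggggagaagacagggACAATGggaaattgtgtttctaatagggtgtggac
The Mobp window held 6 such matches, those of Ermn and Hapln2 held 1 each, and that of Mog held 0. Of 32851 mouse promoter windows of the same length, 25.2% held at least 1. A match is a run of letters and was not tested as a binding site.

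Transcription factors of the same lineage were among the called members. Olig1 averaged 4.6 CPM in the middle and 0.878 CPM in the base (2.4), and Olig2 averaged 0.878 and 0.138 CPM (2.6). Myrf, which drives myelin genes in oligodendrocytes, averaged 8.8 ± 0.957 CPM in the middle and 3.98 ± 0.319 CPM in the base (1.14). Mbp, a myelin gene that Schwann cells use too, was not called, at 1515 ± 12.7 CPM in the middle and 997 ± 4.82 CPM in the base (0.6). None of the 17 genes of Schwann cells and peripheral myelin was called, and their median change was 0.11.

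Of 14 astrocyte genes, 4 were called higher and none lower. The list as a whole was mixed, with 8 changes positive, 6 negative and a median of 0.16. Its members summed to 6986 to 7001 CPM in the middle libraries, below the 7629 to 7748 CPM of the base libraries. Gfap, an intermediate filament of astrocytes that some Schwann cells also make, had 63.8, 58.8 and 59.7 CPM in the middle, against 24.9, 22.8 and 25.7 CPM in the base (1.32, SE 0.039). Aqp4, a water channel of astrocytes that cochlear supporting cells also use, averaged 35.5 ± 2.61 CPM in the middle and 16.9 ± 0.0962 CPM in the base (1.07). Ntsr2, a neurotensin receptor, averaged 2.06 ± 0.251 CPM in the middle and 0.658 ± 0.0964 CPM in the base (1.65). Slc6a11, a GABA transporter, changed by 1.08, and its call was lost without control base replicate 2 (0.71) or control middle replicate 2 (0.94). S100b, shared by many glia, changed by -0.14. Among 18 tested genes of central neurons, 2 were called: Gad1, an enzyme of GABA synthesis, at 2.29 ± 0.604 CPM in the middle and 0.901 ± 0.179 CPM in the base (1.36), and Barhl1, a factor of brainstem and hair cells (1.03), whose call was lost without control base replicate 3 (0.99) or control middle replicate 2 (0.83).

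**Figure D3:**
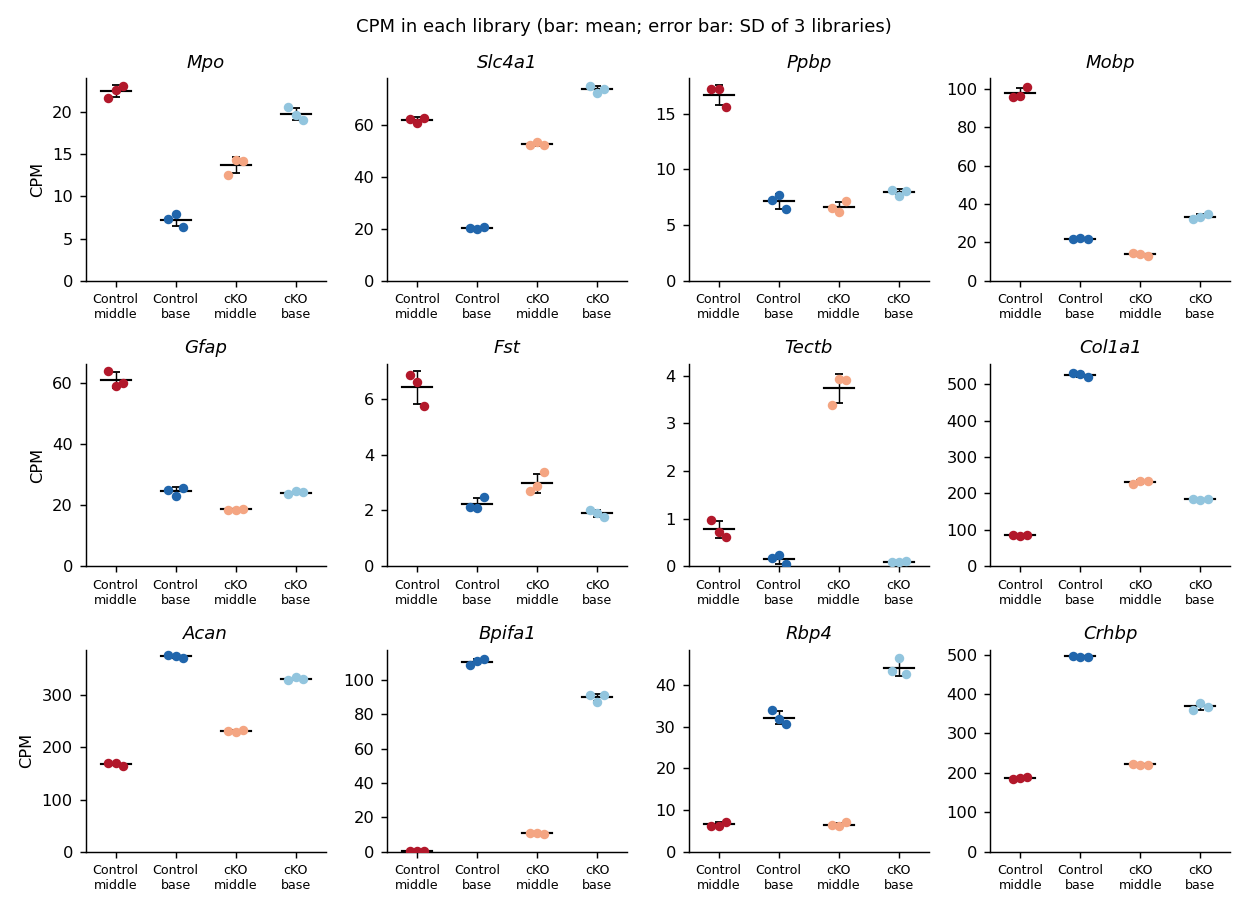
Each panel shows 1 gene, with CPM from 0 on the vertical axis and the 3 libraries of control middle, control base, Fst cKO middle and Fst cKO base as dots, the mean as a bar and the SD as an error bar. Mpo, Slc4a1, Ppbp, Mobp, Gfap and Col1a1 change in opposite directions in the 2 genotypes, and Fst, Tectb, Acan, Bpifa1, Rbp4 and Crhbp in the same direction.

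Fst itself was higher in the middle. It had 6.85, 6.61 and 5.75 CPM in the middle libraries, against 2.11, 2.08 and 2.46 CPM in the base libraries, a change of 1.54 (SE 0.11, adjusted p 9.67e-14 by edgeR), and the control apex averaged 23.8 CPM. The levels were thus lowest in the base and highest in the apex, with no overlap between middle and base. Tectb, which encodes beta-tectorin of the tectorial membrane, was low on both sides, at 0.974, 0.727 and 0.623 CPM in the middle and 0.164, 0.232 and 0.0418 CPM in the base (2.3, SE 0.35), and averaged 27.4 CPM in the apex. Th, tyrosine hydroxylase, found in a subset of spiral ganglion neurons, averaged 2.83 ± 0.098 CPM in the middle and 1.15 ± 0.109 CPM in the base (1.3). It was the called member among 28 ganglion neuron genes, beside 2.73% of all tested genes. Kcnd2, a potassium channel of the fast inactivating kind, was the called member among 27 channel genes (1.02), beside the same share. Its call was lost without control base replicate 3 (0.92).

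Among 14 tested genes of the tectorial membrane and other gels, Tectb and Zp1, both low, were called higher and Otoa lower. Of the 14 changes, 11 were negative and 3 positive, and the median was -0.53. Otoa, the otoancorin that attaches gels to the epithelium, had 116, 113 and 114 CPM in the middle, against 238, 246 and 234 CPM in the base (-1.07, SE 0.023). Zp1, a zona pellucida protein, averaged 0.555 ± 0.175 CPM in the middle and 0.245 ± 0.177 CPM in the base (1.08), and its call was lost without control base replicate 3 (0.67), control middle replicate 1 (0.84) or control middle replicate 3 (1.09). Epyc, a small proteoglycan of supporting cells, averaged 528 ± 3.82 CPM in the middle and 344 ± 2.51 CPM in the base (0.62), below the fold threshold.

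None of 27 tested hair cell genes was called, beside 2.73% of all tested genes, and their changes ran from -0.67 to 0.85 with a median of 0.13. Myo6, an unconventional myosin of hair cells, averaged 303 ± 0.951 CPM in the middle and 303 ± 6.41 CPM in the base. Slc7a14, of inner hair cells and neurons, averaged 74.7 ± 1.21 and 66 ± 1.59 CPM (0.18), and Calb2, a calcium buffer of inner hair cells and neurons, 1376 ± 6.76 and 969 ± 10.4 CPM (0.51). The lists of 10 outer and 8 inner hair cell genes had medians of 0.04 and 0.13. Beside Otoa and Tectb, none of 20 supporting cell genes was called. Gjb2 and Gjb6, gap junction proteins, changed by -0.12 and -0.2. Nefh, a neurofilament subunit, and Snap25, of the release machinery, changed by 0.13 and 0.24. None of 21 neurofilament and presynaptic genes, 11 vestibular genes, 16 endothelial and pericyte genes or 6 tested mitochondrially encoded genes was called.

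In the lateral wall, Slc12a2, which brings chloride into marginal cells of the stria, changed by 0.0046 and was not called. Tyrp1, of melanin synthesis, was the called gene of 14 genes of melanocytes and intermediate cells and was lower in the middle at 0.22 ± 0.0878 CPM and 0.71 ± 0.16 CPM in the base (-1.65). Tbx15, a T-box factor, was the called gene of 15 fibrocyte genes (-1.77). Coch, the secreted cochlin of fibrocytes, averaged 19697 ± 27.4 CPM in the middle and 24359 ± 68.3 CPM in the base (-0.31), and Otos, otospiralin, 4513 ± 20.5 and 7775 ± 87.5 CPM (-0.78), both below the fold threshold.

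Bone genes were lower in the middle. Of 19 osteoblast and matrix genes, 5 were called lower and none higher, all 19 changes were below 0, and the median was -0.78. Col1a1, a chain of type I collagen, had 85.5, 83.8 and 85.9 CPM in the middle libraries, against 531, 529 and 519 CPM in the base libraries (-2.63, SE 0.019, adjusted p 1.78e-44 by edgeR). Bglap and Bglap2, near-identical osteocalcin genes whose reads can be divided between them, averaged 9.04 ± 0.573 and 11.1 ± 0.438 CPM in the middle and 35.4 ± 3.75 and 35.8 ± 2.24 CPM in the base (-1.96 and -1.69). Sost, the sclerostin of osteocytes, averaged 12.1 CPM in the middle and 25.6 CPM in the base (-1.09). Mepe, another osteocyte protein, changed by -1.02, and its call was lost without control base replicate 3 (-0.97) or control middle replicate 2 (-1). Sparc, a matrix protein of many cells, averaged 2863 ± 12 CPM in the middle and 4813 ± 25.4 CPM in the base (-0.75), and Spp1, osteopontin, 6361 ± 37.7 and 6369 ± 37.5 CPM, both not called.

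Outside the list, Mmp13, a collagenase of osteoblasts and cartilage, averaged 1.53 ± 0.389 CPM in the middle and 5.1 ± 0.196 CPM in the base (-1.74). Postn, periostin of the bone surface and other fibrous tissue, had 5.04, 5.5 and 5.51 CPM in the middle, against 21.2, 21.9 and 22.5 CPM in the base (-2.03). Of 8 tested osteoclast genes Atp6v0d2, a proton pump subunit, was called lower (-1.87), at 0.196 CPM in the middle and 0.717 CPM in the base, and Ctsk, the main protease of osteoclasts, changed by -0.36.

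Of 16 tested cartilage and joint surface genes, 4 were called lower and none higher. Acan, the large proteoglycan aggrecan, had 169, 169 and 165 CPM in the middle, against 376, 375 and 371 CPM in the base (-1.16, SE 0.016). Chad, chondroadherin, averaged 51 ± 1.06 CPM in the middle and 142 ± 1.68 CPM in the base (-1.48), and Prg4, lubricin of joint surfaces, 4.44 ± 0.16 and 14.2 ± 1.61 CPM (-1.69). The gene 3110079O15Rik, named Snorc in RefSeq, a membrane proteoglycan of cartilage, averaged 0.185 ± 0.0527 CPM in the middle and 1.15 ± 0.212 CPM in the base (-2.6). Col2a1 and Col11a2, collagens of cartilage and of the tectorial membrane, changed by -0.96 and -0.51 and were not called.

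Among signalling genes, the Wnt list had the most calls. In it, 5 of 30 tested genes were lower in the middle and 1 was higher, beside 1.2% and 1.53% of all tested genes. The lower ones included inhibitors: Sfrp4, a secreted Wnt binder, had 38.7, 39.8 and 37.5 CPM in the middle, against 127, 128 and 130 CPM in the base (-1.73, SE 0.025), Dkk1 averaged 0.82 ± 0.138 and 2.66 ± 0.217 CPM (-1.69), and Sfrp2 averaged 0.485 and 2.19 CPM (-2.17). Ligands were called too, with Wnt6 at 3.81 ± 0.182 CPM in the middle and 8.08 ± 0.235 CPM in the base (-1.09), Wnt10b at -1, and Wnt3 higher in the middle (1.7; 0.89 and 0.256 CPM). The call of Wnt10b was lost with the replicate block and without control base replicate 1 (-0.95), control base replicate 2 (-0.98) or control middle replicate 3 (-0.93). Wnt5a, which guides cell orientation, changed by -0.13.

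Of 20 hedgehog pathway genes, Gli1, a transcription factor that is itself a target of the pathway, was called lower. It had 4.73, 4.81 and 5.16 CPM in the middle, against 10.1, 10 and 9.69 CPM in the base (-1.02, SE 0.082). Without control middle replicate 1 its change, which rounds to -1, fell short of the fold threshold. Smo, the signal transducer, and Gas1, a coreceptor, changed by -0.004 and -0.54. Among 37 tested genes of activins, follistatins and BMPs, Fst was called higher and 2 were lower: Gdf10, a ligand of the family, at 7.29 ± 0.314 CPM in the middle and 16.2 ± 1.15 CPM in the base (-1.16), and Bmp8a (-1.04), whose call was lost without control middle replicate 3 (-0.98). The calls of that list stood beside 1.53% higher and 1.2% lower of all tested genes. Id3, a target of BMP signals, changed by -0.1. None of 17 Notch and 20 FGF genes was called. Ntn1, the guidance protein netrin, had 8.48, 8.55 and 8.97 CPM in the middle, against 31.5, 32.8 and 31.2 CPM in the base (-1.88).

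The airway and mucosal list gave large changes in both directions. Bpifa1, a secreted lubricating protein of upper airway and middle ear mucosa, had 0.591, 0.519 and 0.52 CPM in the middle, against 109, 111 and 112 CPM in the base (-7.66, SE 0.064, adjusted p 3e-42 by edgeR). Cyp2f2, an enzyme of club cells in airways, had 0.0695, 0.311 and 0.208 CPM in the middle, against 11.3, 12.4 and 12.5 CPM in the base (-5.91, SE 0.2). Both were close to absent in every middle library. Lypd2, of mucosal surfaces, averaged 2.17 ± 0.192 CPM in the middle and 4.83 ± 0.294 CPM in the base (-1.15), and Sec14l3 was at 0 counts in the middle libraries and averaged 0.0689 CPM in the base, a call lost without each middle library and without control base replicate 1 or 2. In the other direction, Bpifb3 averaged 2.45 CPM in the middle and 0.32 CPM in the base (2.92), and Sprr1a, a cornified envelope protein, 3.06 and 0.124 CPM (4.51). With Ltf, described among the neutrophil genes, 3 of the 15 tested members were called higher and 4 lower.

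Of 17 tested motile cilia genes, Ccdc108 was called lower, as was Dnah5, an axonemal dynein whose call was lost without control base replicate 2 (-1.63), control base replicate 3 (-1.18) or control middle replicate 1 (-1.26). Both averaged at most 0.31 CPM in either control region, and a fit on the 6 libraries alone, which tested 13 genes of the list, called none of them. Hoxa2, a factor that patterns the second pharyngeal arch and hindbrain, was the tested gene of 14 anterior Hox genes and was lower, at 0.974, 0.381 and 0.623 CPM in the middle and 4.31, 3.61 and 4.01 CPM in the base (-2.58, SE 0.21). Of 16 tested skeletal muscle genes, 5 were called lower. Tcap, a titin binding protein, averaged 9.87 ± 0.488 CPM in the middle and 27.1 ± 1.75 CPM in the base (-1.45). The others, Ckm, Myh1, Myh4 and Tnnt3, averaged 0.0231 to 0.116 CPM in the middle and 0.143 to 0.346 CPM in the base. A fit on the 6 libraries alone tested 10 muscle genes and called 1. The call of Ckm was lost without control base replicate 1 or 2 and without each middle library. That of Myh1 was lost without control base replicate 2 and control middle replicate 1 or 2 (-2.16 to -1.71), and that of Tnnt3 without control base replicate 3 and control middle replicate 2 or 3 (-1.64 to -1.07).

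In the list of meninges, choroid plexus and ion transporters, 8 of 20 genes were called lower and none higher, with a median of -0.68. Rbp4, the plasma carrier of retinol, had 6.29, 6.23 and 7.17 CPM in the middle libraries, against 33.9, 31.9 and 30.7 CPM in the base libraries (-2.3, SE 0.062, adjusted p 2.37e-26 by edgeR). Ttr, its partner in plasma and a thyroid hormone carrier, averaged 14.5 ± 0.944 CPM in the middle and 38.5 ± 1.77 CPM in the base (-1.41). These were also the 2 called members, both lower, among 19 tested genes of retinoid handling. Slc47a1, an exporter of organic cations, averaged 6.27 ± 0.76 CPM in the middle and 20.4 ± 0.636 CPM in the base (-1.7). Slc26a7, an anion exchanger that the cochlear epithelium also uses, had 32.3, 33.7 and 34 CPM in the middle, against 82.9, 86.8 and 83.8 CPM in the base (-1.34), while the apex averaged 81 CPM. Ptgds, a prostaglandin synthase of meninges and cochlear tissue, averaged 24527 ± 25.7 CPM in the middle and 26014 ± 34.9 CPM in the base (-0.085).

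Some abundant calls stood on none of these lists. Crhbp, a secreted binding protein for corticotropin-releasing hormone, had 185, 187 and 189 CPM in the middle, against 497, 495 and 494 CPM in the base (-1.4, SE 0.016), and the apex averaged 382 CPM. Serpinf1, a secreted factor that inhibits vessel growth, had 154, 156 and 156 CPM in the middle, against 336, 337 and 333 CPM in the base (-1.11, SE 0.016). Sult5a1, a sulfotransferase, averaged 20.5 ± 1.52 CPM in the middle and 67.7 ± 1.42 CPM in the base (-1.72).

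Sex-linked transcripts and early response genes differed little between the 2 control pools. Xist, from the inactive X chromosome, averaged 298 ± 3.75 CPM in the middle and 309 ± 4.01 CPM in the base, and the Y-linked Ddx3y averaged 55.4 ± 1.58 and 52.8 ± 1.16 CPM. Of 19 immediate early genes, Fosb was called lower, at 0.266 CPM in the middle and 0.564 CPM in the base (-1.06). That call was lost without control base replicate 1 (-1.1), 2 (-1.14) or 3 (-0.93) and without control middle replicate 3 (-0.68).

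The same regions of Fst cKO mice gave a separate pair of pools. There, 584 genes were called between middle and base, 3.26% of those tested, 343 of them higher in the middle (1.92%) and 241 lower (1.35%). Fst averaged 2.98 CPM in cKO middle and 1.89 CPM in cKO base, a change of 0.65, and its counts cover the whole gene and not the deleted part alone. Of the 488 genes called in the control, 207 changed with the same sign in the cKO, beside 61.2% of all tested genes. Of the 273 genes higher in the control middle, 64 had the same sign in the cKO, 8 were called higher there and 28 lower. Of the 215 lower genes, 143 had the same sign, 32 were called lower in the cKO and 9 higher.

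A test of the difference between the 2 steps, cKO minus control, called 841 genes, 4.7% of those tested, with the cKO step lower for 455 (2.54%) and higher for 386 (2.16%). It called 314 of the 488 genes: 213 of the 273 higher in the control middle, with the cKO step lower for 212 of them, and 101 of the 215 lower in the control middle, with the cKO step higher for 100. The control step stands on both sides of this comparison, so a high share among genes chosen by that step is a description. Neutrophil genes summed to 286 to 287 CPM in cKO middle and 383 to 385 CPM in cKO base, against 326 to 330 CPM in control middle and 119 to 123 CPM in control base, and the step differed for all 15. It also differed for 13 of 14 red blood cell genes, 11 of 17 platelet genes and 11 of 15 cell cycle genes. The control base pool thus had the lowest neutrophil sum of the 4. Xist averaged 87.1 CPM in cKO middle and 59.8 CPM in cKO base, below both control pools, and Ddx3y averaged 84.4 and 84.7 CPM, above them, and the part of the sex makeup of the pools in these differences was not tested.

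The step of central glia also differed. Mobp averaged 13.7 CPM in cKO middle and 33.3 CPM in cKO base, a change of -1.28 that differed from the control by -3.44 (SE 0.058, adjusted p 1.76e-32 by edgeR), and 11 of 24 oligodendrocyte genes differed, all with the lower step in the cKO. Col1a1 averaged 231 CPM in cKO middle and 184 CPM in cKO base (0.33), a difference of 2.96 from the control step, and 9 of 19 bone genes differed. The median of the bone list was 0.16 in the cKO, against -0.78 in the control.

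Of the 488 genes, 40 were called in the same direction in the cKO and 37 in the opposite direction. Among all tested genes, 1.92% were called higher and 1.35% lower in cKO middle. Rbp4 averaged 6.52 CPM in cKO middle and 44.2 CPM in cKO base (-2.76). Bpifa1 averaged 10.8 and 90 CPM in those pools (-3.06), and Cyp2f2 2.01 and 7.53 CPM (-1.9), both smaller steps than in the control. Hoxa2 changed by -1.56, Sult5a1 by -1.11 and Tectb by 5.29 in the cKO. Tectb averaged 3.73 CPM in cKO middle and 0.0914 CPM in cKO base. It had 7 counts over the 3 cKO base libraries, so the size of its step is uncertain. Chad and Crhbp kept the sign at -0.84 and -0.73 without passing the fold threshold. For Crhbp the step differed by 0.67 from the control.

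**Figure D4:**
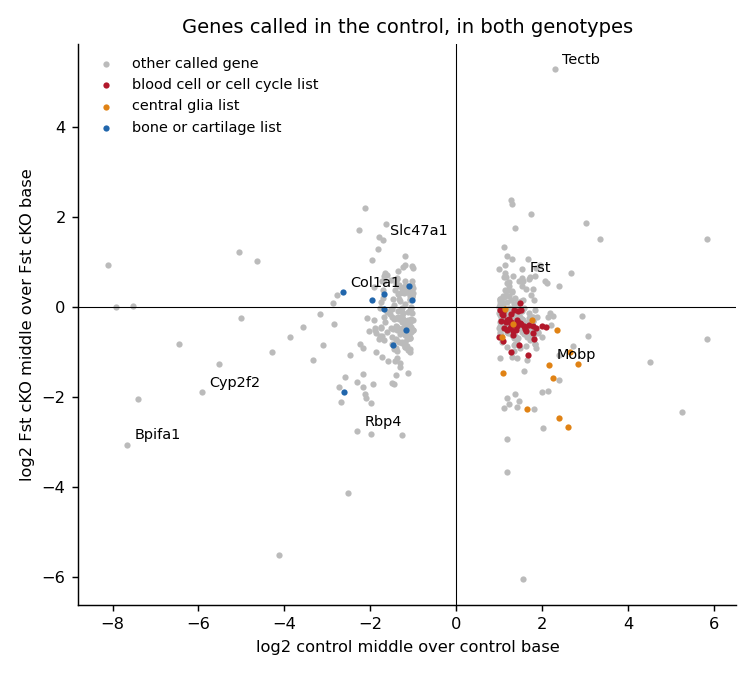
Each point is 1 of the 488 genes called in the control, with its log2 change, control middle over control base, on the horizontal axis and its log2 change, Fst cKO middle over Fst cKO base, on the vertical axis. Colours mark members of the blood cell and cell cycle lists, the central glia lists and the bone and cartilage lists. The blood cell points lie to the right and mostly just below 0, and 281 of the 488 points have opposite signs in the 2 genotypes.

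The 3 libraries of each pool were also summed, and middle was compared with base over both genotypes in a fit of all 6 pools, the apex pools included. The common biological coefficient of variation was 0.116 in that fit, against 0.00988 between libraries. With 1 pool per group, the 0.116 holds the spread between pools together with any difference of the regional steps between genotypes. In that fit 1 gene was called, 0.00559% of those tested (edgeR, 2 residual degrees of freedom). An unadjusted p under 0.05 was found for 2249 of the 17901 tested genes, among them 118 of the 488. The control step that chose the 488 is part of this comparison, so a larger share among them is favoured by the choice and is a description. The called gene was Chrnb3, a nicotinic receptor subunit (adjusted p 0.0209 by edgeR). It averaged 18.3 CPM in cKO middle and 0.0522 CPM in cKO base, against 0.0463 CPM in control middle and 0 counts in control base, so its call rested on the cKO pools, and it was not called between the control regions.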

How the data were processed

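RNA-seq libraries of 6 groups were used, 3 technical libraries of 1 RNA pool each, prepared, per the labels, with Ribo-Zero and the TruSeq v2 kit. STAR 2.5.2b, Cuffdiff 2.2.1 and GRCm38 (mm10) are named in the submitters' processing notes. The authors deposited expected counts per gene and library, which are estimated and not scaled to a common total (89.2% to 89.9% whole within 1e-06), and FPKM values, which the authors computed per library. Whether counting used strand is not given in the sources used here, so reads of overlapping genes cannot be told apart, among them Ermn and Galnt5, Mpo and Gm11505, Gad1 and Gad1os, Vpreb1 and Top3b, and Rag2 and B230118H07Rik. The 4-week-old control middle and control base libraries were compared.

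Counts were rounded and fitted with edgeR 4.0.16 (R 4.3.3) over all 18 libraries and 6 groups, with filterByExpr (17901 genes), TMM scaling, quasi-likelihood tests and Benjamini-Hochberg adjustment over all tested genes. The SE is the log2 change divided by the root of its F value. A call needed an adjusted p under 0.05 and a log2 change of at least 1. On simulated counts, 100 of 100 genes changed 2.5-fold were called between control middle and control base, with 2 false calls. The changed genes were drawn from those with higher counts, and the simulated spread was that between libraries. The recovery therefore does not cover genes of low counts or the spread between pools. DESeq2 1.42.0 and limma 3.58.1 (on log2 of FPKM plus 1) served as alternatives. A floor of 3 counts equals 0.1033 to 0.1038 CPM in the middle libraries and 0.0964 to 0.1227 CPM in the base libraries, and covers counting error only, since reads carry no molecular identifiers.

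The members and the 41 gene lists (684 genes, 683 found in the table, 3 by an older symbol) were chosen with earlier results of these data known, so list counts are descriptions. Genes were named by rule: the 15 highest and 15 lowest called changes with non-overlapping libraries and at least 5 CPM in the higher region, the 5 largest gains and 5 largest losses in CPM, up to 4 called and 2 other members of each list by level, Fst and Tectb. This gave 159 genes, of which part is described. Olig1, Olig2, Sost, Sfrp2, Wnt3, Ckm, Sec14l3, Bpifb3, Sprr1a, Chrnb3 and Atoh1, and the genes under Other observations, fall outside the rule and were named after their values were seen. Promoter sequences are from RefSeq on GRCm38.p6, and all 4 genes looked up were matched. Results for some genes are not reported here.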

Additional observations from a re-analysis of the deposited data

Results flagged for a closer look

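The step between middle and base differed between Fst cKO and control for 57 of the genes named in the sections above. The test was that of the difference itself (edgeR, adjusted p under 0.05 and at least 1 on the log2 scale). Values are the cKO step minus the control step, each from 1 pool per group, and no cause was tested. The shared control step chose most of these genes, so opposite signs are favoured by the choice.

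Among blood and dividing cell genes the values were -1.84 for S100a8, -1.84 for S100a9, -1.78 for Ngp, -2.16 for Mpo, -2.42 for Elane and -1.71 for Ltf. They were -2.1 for Slc4a1, -2.34 for Epb4.2, -2.21 for Hemgn, -1.68 for Hba-a1 and -1.4 for Hbb-bs. Ppbp had -1.49, Mki67 -1.64, Top2a -1.41, Rrm2 -1.25 and Ifi44 -1.04.

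Among glial and neuronal genes they were -4.11 for Mog, -3.44 for Mobp, -3.65 for Ermn, -2.05 for Hapln2, -1.19 for Myrf, -4.87 for Olig1 and -5.27 for Olig2. Gfap had -1.69, Aqp4 -1.73, Ntsr2 -3.92, Slc6a11 -2.55, Gad1 -3.3, Barhl1 -1.01 and Kcnd2 -2.15.

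Among bone, cartilage and matrix genes they were 2.96 for Col1a1, 2.11 for Bglap, 1.65 for Bglap2, 1.57 for Sost, 1.17 for Mepe, 1.85 for Mmp13, 1.49 for Postn and 1.99 for Prg4. Signalling genes had 1.07 (Sfrp4), 2.27 (Dkk1), 1.41 (Wnt6), 1.31 (Wnt10b), 1.3 (Gli1) and 1.41 (Ntn1).

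The remaining genes had 4.6 (Bpifa1), 4 (Cyp2f2), -3.11 (Bpifb3), -5.73 (Sprr1a), 4.34 (Ccdc108), 3.49 (Dnah5), 1.02 (Hoxa2), 3.19 (Slc47a1), 1.19 (Tcap), 3.98 (Myh4), 2.42 (Tyrp1), 1.11 (Tbx15) and 2.99 (Tectb). Tectb rose in both genotypes, and its fitted step was larger in the cKO. It averaged 0.146 CPM in control base and 0.0914 CPM in cKO base, near the floor of 3 counts, so the size of this difference is uncertain. Il33 (1.25) and Ecel1 (-1.38), named under Other observations, passed the same test.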

How the results depend on the processing

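The count of 488 genes (273 higher in the middle, 215 lower) became 5647 with no fold threshold (2853 higher, 2794 lower), 89 with a mean of at least 5 CPM (39 and 50), 118 with glmTreat against a log2 change of 1 (59 and 59), and 88 with limma on log2(FPKM + 1) (45 and 43). The main calls held 118 of the 118 and 83 of the 88. The difference between the 2 steps, 841 genes, became 5985 with no fold threshold (3285 higher and 2700 lower in the cKO), 216 at 5 CPM (127 and 89), and 246 on FPKM (106 and 140). FPKM with a pseudocount of 1 compresses changes of low genes by construction. Leaving out 1 library gave 467 to 489 genes (259 to 281 higher, 201 to 215 lower) and, for the difference of steps, 807 to 833 (358 to 381 higher, 435 to 460 lower), and 404 to 425 of the 488 calls were shared. DESeq2's Wald test gave 419 calls, DESeq2 size factors 487, no filter 540 and a fit on the 6 libraries 422. The summed pools gave 1 call under each alternative run. Among named genes the calls lost were 4 with the Wald test, 35 with glmTreat and 27 on FPKM, Fst (0.96) and Tectb (0.46) included. No named gene with a call changed sign. Replicate numbers did not pair the samples: same-numbered libraries correlated at -0.054, 0.039 and -0.002 in their deviations over 14290 genes. With the replicate block 485 genes were called (271 higher, 214 lower), 828 for the difference of steps, and Wnt10b was the named call lost. With 1 pool per region, no alternative measures the spread between animals.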

Other observations

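Many called genes did not follow the order base, middle, apex. Of the 273 genes higher in control middle, 43 had a higher mean in control apex than in control middle, 61 lay between the regions there, and 169 had their lowest mean in the apex. Mog was of the last kind, at 0.306 CPM in control apex. Of the 215 lower genes, 114 had an apex mean below the middle, 84 one between the regions, and 17 one above the base. Tmem72, a membrane protein with no clear function, averaged 23.5 ± 0.927 CPM in control middle and 52.6 ± 1.43 CPM in control base, while control apex averaged 54.1 CPM. Otx2, a homeobox factor of the choroid plexus and eye, averaged 5.12 ± 0.0982 CPM in control middle and 12.1 ± 0.88 CPM in control base, and 12.5 CPM in control apex. Kcne2, a potassium channel subunit, averaged 2.73 ± 0.138 CPM in control middle and 6.72 ± 0.197 CPM in control base, and 6.04 CPM in control apex. Il33, an alarmin cytokine, averaged 2.42 ± 0.389 and 6.15 ± 0.519 CPM in the same control regions, and 5.5 CPM in control apex. Each of these genes, and Slc26a7, was lowest in the middle of the 3 control pools.

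Others, like Fst, were higher in control middle than in control base and highest in control apex. Kcnip4, a subunit that associates with Kv4 potassium channels, averaged 14.1 ± 0.785 CPM in control middle and 5.72 ± 0.585 CPM in control base, and 35.5 CPM in control apex. In the cKO it averaged 15.1 CPM in the middle and 7.18 CPM in the base, a change of 1.07 beside 1.29 in the control. Colq, the collagen tail of acetylcholinesterase, averaged 9.23 ± 0.184 CPM in control middle and 3.71 ± 0.38 CPM in control base, and 14.6 CPM in control apex. In the cKO Colq averaged 11.4 CPM in the middle and 2.3 CPM in the base, a change of 2.3. Ecel1, an endopeptidase of neurons, averaged 9.12 ± 0.801 CPM in control middle and 3.22 ± 0.312 CPM in control base, and 18.5 CPM in control apex, with a cKO change of 0.13. No test against the apex is reported for these genes.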
